A study of Mus musculus with 26 samples.

Results

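The genes described here move calcium in the milk-secreting cell or regulate that movement. They are Atp2b1 and Atp2b2 (calcium pumps of the plasma membrane), Atp2c1 and Atp2c2 (calcium and manganese pumps of the Golgi and secretory pathway), Atp2a2 (the SERCA2 pump of the endoplasmic reticulum), Orai1 and Stim1 (channel and sensor of store-operated calcium entry), Casr (the calcium-sensing receptor), Tph1 (the rate-limiting enzyme of serotonin synthesis outside the brain) and Pthlh. Members were all probe sets that the array annotation gave to 1 of these 10 symbols alone. That rule found 25 of the 45037 probe sets tested, for 9 of the 10 genes, out of 18193 genes with a probe set of their own. Pthlh had no such probe set and is not analysed here. Atp2a2 had 6 probe sets, Atp2c1 had 5, Atp2b1 and Atp2b2 had 3 each, Casr, Orai1 and Stim1 had 2 each, and Atp2c2 and Tph1 had 1 each.

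Milk carries far more calcium than plasma, and the secretory epithelium raises its calcium transport when lactation begins. Calcium enters the cell through channels such as ORAI1, which STIM1 opens when the stores of the endoplasmic reticulum are low, is loaded into the endoplasmic reticulum and Golgi by SERCA and SPCA pumps, and is driven across the apical membrane by PMCA2, the product of Atp2b2. CASR senses circulating calcium and, in the mammary gland, is known to lower the secretion of the hormone encoded by Pthlh, whereas serotonin made by TPH1 is known to raise it, and that hormone frees calcium from bone.

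RNA of whole inguinal mammary gland was measured on 26 Affymetrix mouse genome arrays. At lactation day 9 the groups were mice of an advanced intercross line of generation 14 (AIL) between CBA/CaH and QSi5, with the sample code AQ (5 arrays) or AC (5 arrays), QSi5 (3 arrays) and CBA/CaH (3 arrays). At pregnancy day 12 they were QSi5 (5 arrays) and CBA/CaH (5 arrays). CBA/CaH and QSi5 are inbred strains, QSi5 being known for large litters; the labels give no age, leave the codes AC and AQ unexplained, and list no intercross mice at pregnancy. Each probe set has an RMA value on the log2 scale for each array, and the number of arrays limits its precision. Every sample has its own code in the labels, which do not otherwise say that samples came from separate animals, so p-values measure the spread between these samples. A probe set was said to rise or fall where its adjusted p was under 0.05 in a limma model over all probe sets.

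The 7 milk protein markers (Csn2, Wap, Lalba and others) had an array median of 14.69 to 14.84 at lactation and 12.85 to 14.51 at pregnancy. In all, 7 arrays stood apart, at over 1 log2 unit above their group median, by muscle, brown fat or B and plasma cell markers or by the Gapdh 3′ minus 5′ value, the log2 difference between probe sets at either end of that transcript, which is read as a sign of RNA quality: pregnancy CBA/CaH arrays 3 and 5, pregnancy QSi5 arrays 3, 4 and 5, lactation QSi5 array 2 and AIL AC array 1. The median difference of all probe sets between stages was 0.19 in QSi5 and 0.17 in CBA/CaH, and with array medians set equal it was -0.03 in QSi5 and near 0 in CBA/CaH. That scaling also turned the balance of calls: 9733 of 22511 calls in QSi5 and 9095 of 20214 in CBA/CaH were then higher at lactation, against 16186 of 26596 and 14546 of 23849 on the values as deposited. Whole glands were measured, so fewer cells of a type and less RNA per cell cannot be told apart. Of 7 luminal epithelial markers, 7 fell in QSi5 and 6 fell in CBA/CaH, and their array median was 9.57 to 10.63 at parental lactation, against 11.09 to 12.13 at pregnancy. Of all probe sets 23.1% fell in QSi5 and 20.7% in CBA/CaH, and of those with a mean of at least 5, 37.5% and 33.9% fell. Fibroblast markers (6 of 6 measured) had an array median of 6.61 to 7.53 at parental lactation, against 8.43 to 10.82 at pregnancy; the part of cell makeup in the stage differences was not tested.

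The first comparison asked which of these genes differed between established lactation and mid-pregnancy in each parental strain. In both strains Atp2b2, Atp2c2, Orai1 and Casr rose and Atp2a2 and Tph1 fell at their highest probe set, while Atp2b1, Atp2c1 and Stim1 did not pass the test there. Of all 25 probe sets, 9 rose and 6 fell in QSi5, and 9 rose and 4 fell in CBA/CaH. Across the array, 35.9% of probe sets rose and 23.1% fell in QSi5, and 32.3% rose and 20.7% fell in CBA/CaH, so a call for stage is common. With array medians set equal, 7 of the 25 rose and 9 fell in QSi5, and 9 rose and 5 fell in CBA/CaH. Level bears on this background, since 45.2% of probe sets with a mean under 5 rose in QSi5 and 6.37% fell, against 28% and 37.5% of the brighter ones.

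**Figure D1:**
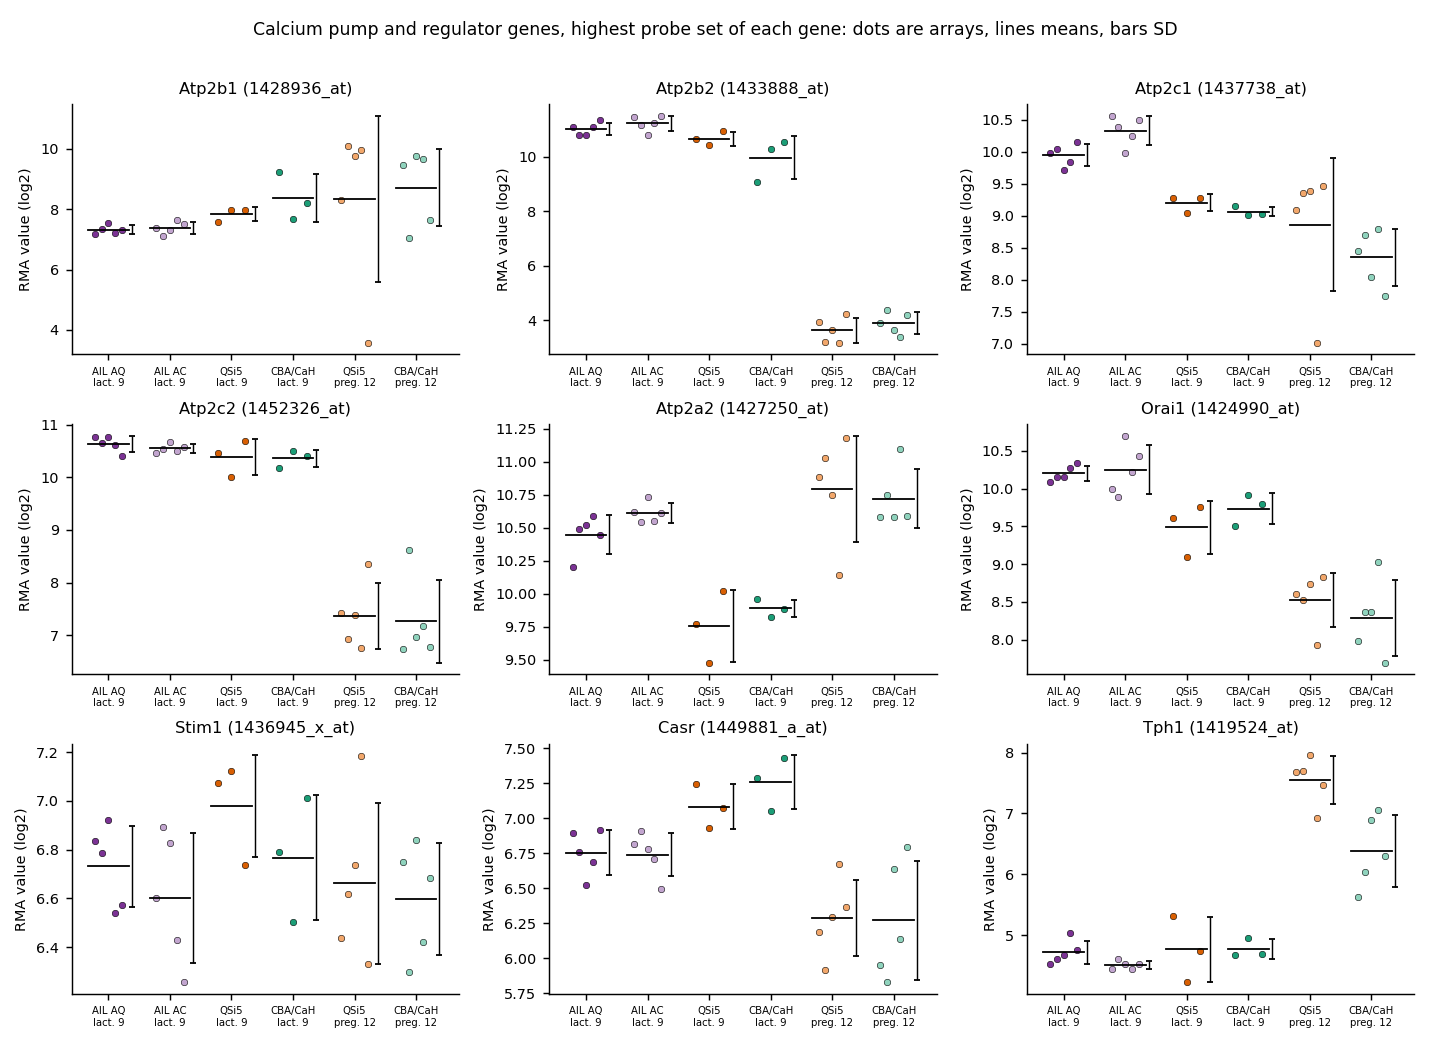
RMA values (log2) of the highest probe set of each gene on every array (dots), with group means (lines) and SDs (bars), for AIL AQ, AIL AC, QSi5 and CBA/CaH at lactation day 9 and QSi5 and CBA/CaH at pregnancy day 12. Atp2b2 lay between 9.07 and 11.48 on the lactation arrays and between 3.17 and 4.40 on the pregnancy arrays.

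Atp2b2, the apical pump (chromosome 6, 113743831 to 114042613, GRCm38.p6), gave the largest stage difference of the 9 genes in both strains. Its highest probe set, 1433888_at, was at 10.64, 10.41 and 10.93 on the lactation QSi5 arrays, against 3.94, 3.20, 3.64, 3.17 and 4.22 on the pregnancy QSi5 arrays. In CBA/CaH it was at 9.07, 10.28 and 10.55 at lactation, against 3.88, 4.40, 3.65, 3.39 and 4.18 at pregnancy. The stages were thus far apart in both strains, and the pregnancy values lay near the low end of the table, whose lowest value was 2.34. The difference was 7.02 in QSi5 (SE 0.32, adjusted p = 1.09e-09) and 6.07 in CBA/CaH (SE 0.32, adjusted p = 4.98e-09). The other probe sets showed the same direction: 1420403_at rose by 4.37 in QSi5 and 4.47 in CBA/CaH (SE 0.20), and 1420402_at by 4.60 and 4.05 (SE 0.36). By level of 1433888_at the order of groups was AIL AC, AIL AQ, lactation QSi5, lactation CBA/CaH, pregnancy CBA/CaH and pregnancy QSi5. Neighbours in that order overlapped in their values, except across the gap between lactation and pregnancy.

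RefSeq gives Atp2b2 several transcript starts, and the 250 bases before 3 of them are printed here because Atp2b2 rose most; which start was used was not measured. The motif TTCNNNGAA, which reads the same on both strands and is known as the site of STAT5, the transcription factor that prolactin activates, was looked for in these windows. It occurred in 2306 of 32851 such windows in RefSeq (7.02%), and in none of these 3. All are on the minus strand of GRCm38.p6 and run 5′ to 3′ toward the start, at chr6:114042081-114042330, chr6:113934682-113934931 and chr6:113891540-113891789.
Atp2b2, distal start: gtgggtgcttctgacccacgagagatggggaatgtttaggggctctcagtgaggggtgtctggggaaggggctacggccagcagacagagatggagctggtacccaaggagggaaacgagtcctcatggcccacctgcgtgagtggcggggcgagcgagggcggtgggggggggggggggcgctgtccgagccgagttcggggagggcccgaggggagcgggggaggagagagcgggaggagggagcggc
Atp2b2, middle start: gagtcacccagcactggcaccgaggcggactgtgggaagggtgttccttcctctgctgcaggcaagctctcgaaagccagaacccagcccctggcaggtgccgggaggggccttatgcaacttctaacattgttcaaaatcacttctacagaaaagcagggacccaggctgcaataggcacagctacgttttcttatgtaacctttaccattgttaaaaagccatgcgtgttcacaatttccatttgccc
Atp2b2, proximal start: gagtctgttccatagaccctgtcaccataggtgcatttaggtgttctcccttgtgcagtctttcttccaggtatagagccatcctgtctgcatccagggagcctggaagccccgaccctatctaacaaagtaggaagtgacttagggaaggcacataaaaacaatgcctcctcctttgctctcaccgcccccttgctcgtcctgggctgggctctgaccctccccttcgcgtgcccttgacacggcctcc

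Atp2c2 (chromosome 8, 119700009 to 119757718), the SPCA2 pump of secretory epithelia, had 1 probe set, 1452326_at. It was at 10.46, 10.01 and 10.69 on the lactation QSi5 arrays, against 7.43, 6.92, 7.39, 6.75 and 8.35 on the pregnancy QSi5 arrays. The CBA/CaH arrays were at 10.18, 10.50 and 10.40 at lactation, against 6.74, 8.62, 6.97, 7.18 and 6.78 at pregnancy. No lactation array overlapped a pregnancy array, although pregnancy CBA/CaH array 2 stood well above the other 4. Atp2c2 rose by 3.02 in QSi5 (SE 0.39, adjusted p = 1.55e-05) and by 3.10 in CBA/CaH (SE 0.39, adjusted p = 1.74e-05).

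Atp2c1 (chromosome 9, 105411362 to 105521257) encodes SPCA1, the Golgi pump found in most tissues, and its 5 probe sets did not move together. The highest, 1437738_at, was at 9.28, 9.05 and 9.28 on the lactation QSi5 arrays, against 9.08, 9.36, 9.39, 7.02 and 9.46 on the pregnancy QSi5 arrays. In CBA/CaH it was at 9.16, 9.02 and 9.03 at lactation, against 8.45, 8.71, 8.05, 8.79 and 7.75 at pregnancy. The QSi5 stages thus overlapped, and the CBA/CaH stages did not. Its stage difference was 0.34 in QSi5 (SE 0.43, adjusted p = 0.505) and 0.72 in CBA/CaH (SE 0.43, adjusted p = 0.169). The low QSi5 value was that of array 4, whose Gapdh 3′ minus 5′ value was 6.50. Without array 4 the QSi5 difference was -0.12 (adjusted p = 0.63), and leaving out all arrays that stood apart gave 0.06 in QSi5 (adjusted p = 0.765) and 0.42 in CBA/CaH (adjusted p = 0.025). Quantile normalization over all arrays gave 1.07 in QSi5 and 1.37 in CBA/CaH, both past the threshold, and cyclic loess gave 1.07 and 1.36. The probe set 1431196_at rose in both strains (0.86 in QSi5 and 1.07 in CBA/CaH, SE 0.26), while 1434386_at fell in QSi5 (-1.01, SE 0.24, adjusted p = 0.00228) and was at -0.56 in CBA/CaH (adjusted p = 0.0598). The last pair had values of at most 4.36 on all arrays: 1442742_at was at 0.24 in QSi5 (adjusted p = 0.127) and rose in CBA/CaH (0.69, SE 0.13), and 1439215_at passed in neither strain.

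Atp2a2, the SERCA2 pump (chromosome 5, 122453513 to 122502225), fell at its highest probe set. Values of 1427250_at were 9.77, 9.48 and 10.02 on the lactation QSi5 arrays, against 10.89, 11.03, 10.75, 10.14 and 11.18 on the pregnancy QSi5 arrays. In CBA/CaH they were 9.96, 9.83 and 9.88 at lactation, against 10.58, 10.75, 10.58, 11.10 and 10.59 at pregnancy. Every lactation array of either strain lay below every pregnancy array. The difference was -1.04 in QSi5 (SE 0.20, adjusted p = 0.000505) and -0.83 in CBA/CaH (SE 0.20, adjusted p = 0.00326). It was smaller and did not pass after quantile normalization (-0.36 in QSi5, adjusted p = 0.0845, and -0.24 in CBA/CaH, adjusted p = 0.269), and after cyclic loess it passed in QSi5 alone (-0.38, against -0.23 in CBA/CaH). The mean of all 6 probe sets passed in QSi5 and not in CBA/CaH (-0.28, adjusted p = 0.0516). Of the other 5 probe sets, 1416551_at fell in both strains (-1.29 in QSi5 and -1.04 in CBA/CaH, SE 0.20), and 1437797_at went the other way in QSi5 (0.54, SE 0.16, adjusted p = 0.011; 0.15 in CBA/CaH, adjusted p = 0.454). The remaining 3 passed in neither strain. SERCA2 is also the pump of slow muscle and heart, and 1416551_at was highest in its group on 2 arrays with markers of other tissue: 9.33 on pregnancy QSi5 array 3, whose median of 9 of 9 skeletal muscle markers was 11.03 against 4.28 to 6.88 on the rest of its group, and 9.30 on pregnancy CBA/CaH array 5, whose median of 5 of 6 brown adipocyte markers was 12.02 against 5.05 to 9.47 on the rest of its group. On pregnancy CBA/CaH array 3, with the brown adipocyte median of 9.47, it was at 8.67, no higher than on array 2. Their part in the stage difference was not tested. Without the arrays that stood apart, 1427250_at fell by 1.06 in QSi5 and by 0.92 in CBA/CaH, and 1416551_at fell by 0.85 and 0.88, all past the threshold.

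Atp2b1, the PMCA1 pump of most cells (chromosome 10, 98914630 to 99026143), could not be read from its highest probe set, 1428936_at. That probe set was at 7.57, 7.97 and 7.97 on the lactation QSi5 arrays, against 8.30, 10.09, 9.76, 9.97 and 3.57 on the pregnancy QSi5 arrays. In CBA/CaH it was at 9.22, 7.66 and 8.20 at lactation, against 9.47, 7.04, 9.75, 9.65 and 7.63 at pregnancy. The value of 3.57 was not shared by the other Atp2b1 probe sets, which were at 8.11 and 6.65 on the same array. The difference was -0.50 in QSi5 (SE 1.15, adjusted p = 0.722) and -0.35 in CBA/CaH (SE 1.15, adjusted p = 0.811), and without that array it was -1.69 in QSi5 (adjusted p = 0.0324). The probe set 1428937_at was at 6.04, 5.86 and 6.02 on the lactation QSi5 arrays, against 7.97 to 9.22 at pregnancy, and at 6.76, 6.27 and 6.20 in lactating CBA/CaH, against 7.54 to 9.03 at pregnancy. It fell by 2.53 in QSi5 (SE 0.34, adjusted p = 1.98e-05) and by 1.91 in CBA/CaH (SE 0.34, adjusted p = 0.000295). The third, 1452969_at, fell in QSi5 (-1.20, SE 0.32, adjusted p = 0.00431) and was at -0.59 in CBA/CaH (adjusted p = 0.124). All 3 estimates were thus below 0 in each strain as deposited, although quantile normalization and cyclic loess put that of 1428936_at above 0 (0.11 and 0.13 in QSi5, and 0.26 and 0.19 in CBA/CaH).

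**Figure D2:**
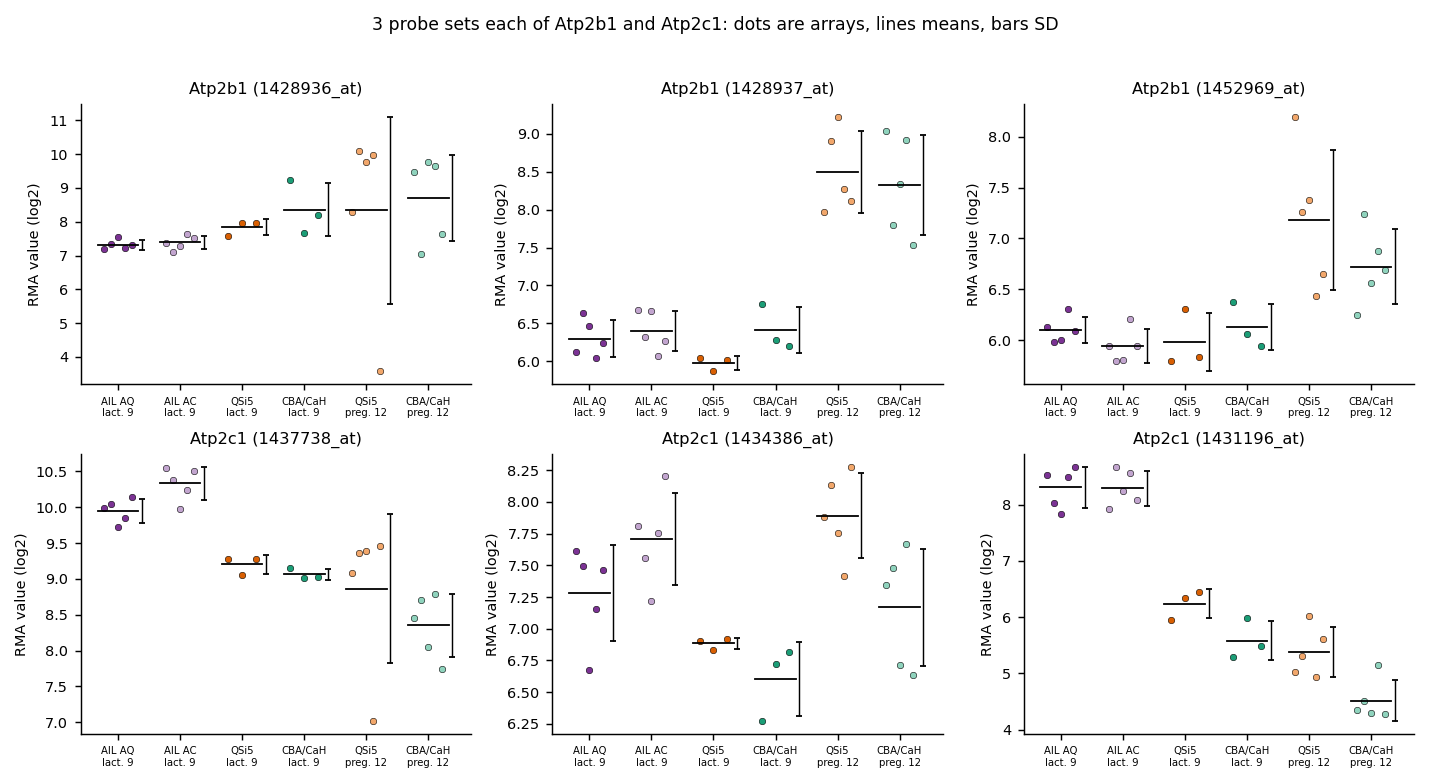
RMA values (log2) on every array (dots; lines are means, bars SDs) for the 3 probe sets of Atp2b1 (top row) and the 3 highest of Atp2c1 (bottom row). The single Atp2b1 value of 3.57 is seen in 1428936_at alone, and the Atp2c1 probe set 1431196_at lies between 7.83 and 8.67 on the AIL arrays, above all parental arrays.

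Of the pair that opens store-operated entry, the channel gene rose and the sensor gene did not pass. Orai1 (chromosome 5, 123015074 to 123030452) was at 9.61, 9.09 and 9.75 (1424990_at) on the lactation QSi5 arrays, against 8.60, 8.52, 8.73, 7.92 and 8.83 on the pregnancy QSi5 arrays. Its CBA/CaH values were 9.50, 9.91 and 9.79 at lactation, against 7.98, 8.36, 8.37, 9.03 and 7.69 at pregnancy. No stage overlapped the other within a strain. Orai1 was higher at lactation in QSi5 by 0.96 (SE 0.27, adjusted p = 0.00592) and in CBA/CaH by 1.45 (SE 0.27, adjusted p = 0.000401), and its second probe set, 1424989_at, by 1.24 and 1.64 (SE 0.29). The QSi5 value of the first was 1.70 after quantile normalization and 1.69 after cyclic loess. Stim1 (chromosome 7, 102261514 to 102437319) was at 7.07, 7.12 and 6.74 (1436945_x_at) on the lactation QSi5 arrays, against 6.44, 6.62, 6.74, 7.18 and 6.33 on the pregnancy QSi5 arrays, and at 6.79, 6.50 and 7.01 in lactating CBA/CaH, against 6.75, 6.30, 6.84, 6.42 and 6.68 in pregnant CBA/CaH. The groups overlapped, and the difference was 0.32 in QSi5 (SE 0.19, adjusted p = 0.165) and 0.17 in CBA/CaH (SE 0.19, adjusted p = 0.468). In QSi5 it passed after quantile normalization (0.72, adjusted p = 0.0144), with array weights (0.42, adjusted p = 0.0255) and without pregnancy array 4 (0.45, adjusted p = 0.0288). The second Stim1 probe set, 1448320_at, was at 0.20 in QSi5 (adjusted p = 0.392) and 0.10 in CBA/CaH (adjusted p = 0.675).

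Orai1 was the one member with the motif TTCNNNGAA among the 13 promoter windows that RefSeq gave for 8 of the 10 genes (Atp2c2 and Atp2a2 had none in the table used). Its window is printed for that reason, on the plus strand of GRCm38.p6 at chr5:123014824-123015073, with the motif, which begins 207 bases before the start, in capitals. The match is a description of these letters and no evidence of binding. The motif was in 1 of the 13 windows, near the share of all such RefSeq windows that held it (2306 of 32851, 7.02%).
Orai1: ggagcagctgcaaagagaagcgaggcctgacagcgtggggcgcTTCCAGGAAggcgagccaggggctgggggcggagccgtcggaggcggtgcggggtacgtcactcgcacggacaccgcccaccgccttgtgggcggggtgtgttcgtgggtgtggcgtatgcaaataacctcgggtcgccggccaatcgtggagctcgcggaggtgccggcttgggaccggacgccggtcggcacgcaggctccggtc

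Casr (chromosome 16, 36490585 to 36562141) was at 7.25, 6.93 and 7.07 (1449881_a_at) on the lactation QSi5 arrays, against 6.18, 5.92, 6.29, 6.67 and 6.36 on the pregnancy QSi5 arrays. In CBA/CaH the values were 7.29, 7.05 and 7.43 at lactation, against 5.95, 5.83, 6.64, 6.14 and 6.79 at pregnancy. All parental lactation arrays lay above all pregnancy arrays. Casr rose by 0.80 in QSi5 (SE 0.22, adjusted p = 0.00529) and by 0.99 in CBA/CaH (SE 0.22, adjusted p = 0.00151). The lower of its probe sets, 1449882_a_at, ran in the same direction without passing (0.30, adjusted p = 0.265, and 0.43, adjusted p = 0.124).

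Tph1 (chromosome 7, 46644641 to 46672537) fell in both strains. It was at 5.32, 4.23 and 4.74 (1419524_at) on the lactation QSi5 arrays, against 7.69, 7.70, 7.95, 6.92 and 7.47 on the pregnancy QSi5 arrays. CBA/CaH arrays were at 4.67, 4.96 and 4.69 at lactation, against 5.62, 6.05, 6.89, 7.06 and 6.29 at pregnancy. The stages did not overlap, and the lactation arrays of both strains and the AIL lay together at the low end. The difference was -2.78 in QSi5 (SE 0.31, adjusted p = 3.96e-06) and -1.61 in CBA/CaH (SE 0.31, adjusted p = 0.000647). Mast cells also make serotonin. Of 7 mast cell markers 7 rose in QSi5 and 3 rose in CBA/CaH, and none fell. Of all probe sets 35.9% rose in QSi5 and 32.3% in CBA/CaH, and of those with a mean under 5, 45.2% and 39.9% rose. The CBA/CaH count was near these shares. The array median of the mast cell markers was at 5.39 to 5.64 in lactating QSi5, against 4.48 to 4.69 in pregnant QSi5. In CBA/CaH it was at 5.11 to 5.39 at lactation, against 4.48 to 5.48 at pregnancy. The part of mast cells in the Tph1 difference was not tested.

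**Figure D3:**
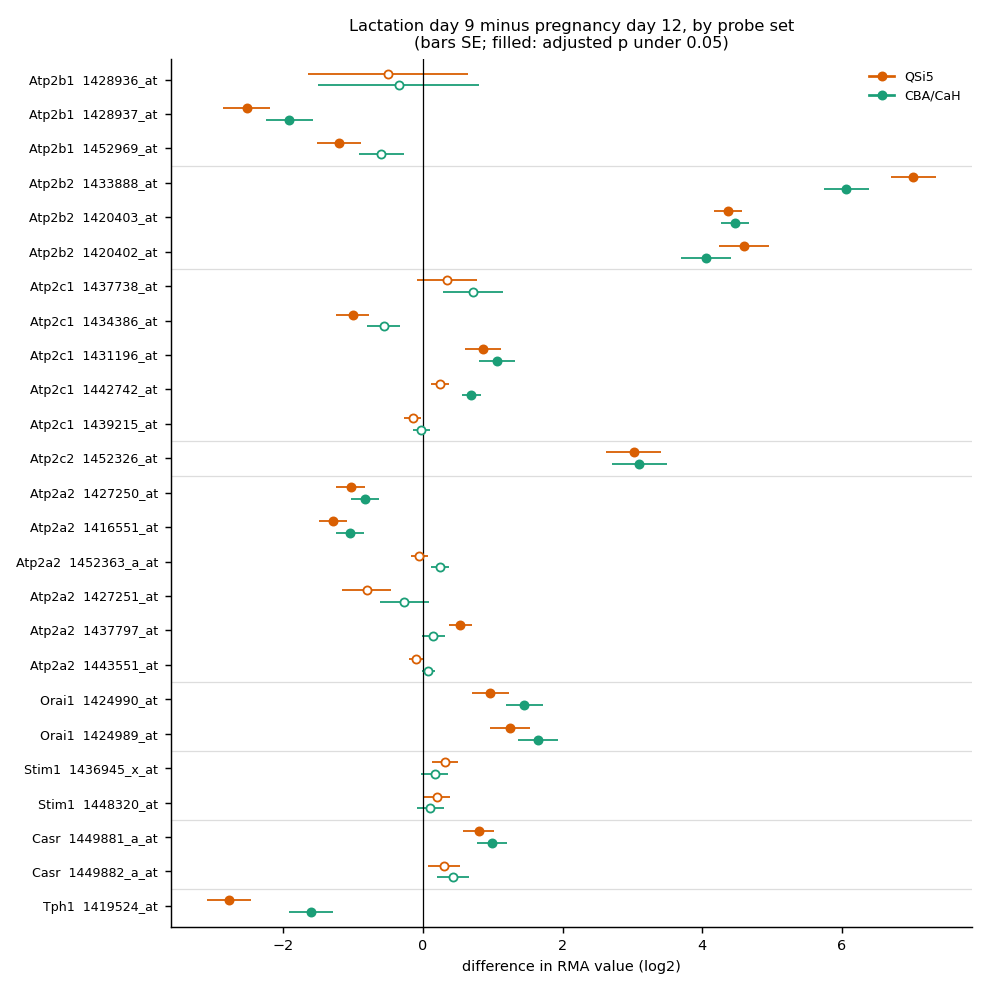
Lactation day 9 minus pregnancy day 12 (log2, points; bars are SEs) for all 25 probe sets in QSi5 and CBA/CaH, filled where the adjusted p was under 0.05. The 3 Atp2b2 probe sets lie between 4.05 and 7.02, and the probe sets of Atp2c1 and Atp2a2 lie on both sides of 0.

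The second comparison set QSi5 against CBA/CaH within a stage. No member probe set passed at pregnancy, where 1.09% of all probe sets did, nor at lactation, where 0.289% did, and none passed for the interaction of strain and stage, where 0.104% did (limma; at an unadjusted p under 0.05 there were 5, 1 and 2 of the 25). Nearest at pregnancy was the dim Atp2c1 probe set 1442742_at, 0.50 higher in QSi5 (SE 0.12, adjusted p = 0.0513). Its values were 3.78 to 4.16 in QSi5 and 3.24 to 3.61 in CBA/CaH. The Atp2c1 estimates at 1431196_at (0.86, adjusted p = 0.0942), 1434386_at (0.72, adjusted p = 0.158) and 1439215_at (0.31, adjusted p = 0.264) were also above 0. So was that of 1437738_at (0.51, adjusted p = 0.805). Among the highest probe sets Tph1 came nearest at pregnancy. Its values of 6.92 to 7.95 in QSi5 and 5.62 to 7.06 in CBA/CaH overlapped through 1 QSi5 array, number 4, and 1 CBA/CaH array, also number 4. The difference was 1.16 (SE 0.27, adjusted p = 0.0525), and it lay between 0.94 and 1.56 in all alternatives that kept every array, with an adjusted p on either side of 0.05. The Gapdh 3′ minus 5′ value differed too: it was 1.20 to 1.74 on the QSi5 arrays other than number 4 (6.50), against 2.00 to 2.86 on the CBA/CaH arrays other than number 4 (0.89), and its part in the strain difference was not tested. At lactation Tph1 differed by -0.01 (SE 0.35, adjusted p = 1.00). The interaction was -1.17 for Tph1 (SE 0.44, adjusted p = 0.828) and 0.96 for Atp2b2 (SE 0.46, adjusted p = 0.942). A miss of the threshold with 3 lactation arrays a strain does not show that the strains were alike.

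The third comparison set the intercross against each parental strain at lactation. Against QSi5, Atp2c1, Atp2a2 and Orai1 were higher in the AIL and Casr was lower. Against CBA/CaH, Atp2c1, Atp2a2, Orai1 and Atp2b2 were higher and Casr and Atp2b1 were lower, all at the highest probe set. Of the 25 probe sets, 7 were higher and 3 lower than in QSi5, and 7 were higher and 3 lower than in CBA/CaH. The shares of all probe sets were 15.7% higher and 20.3% lower against QSi5, and 14.7% higher and 17.4% lower against CBA/CaH. With array medians set equal, 12 of the 25 were higher and 0 lower against QSi5, 9 were higher and 2 lower against CBA/CaH, and over the whole array 9047 of 13991 and 8104 of 12731 calls were higher, against 7085 of 16220 and 6611 of 14425 as deposited. The AIL arrays also differed in other ways: their Gapdh 3′ minus 5′ value was 0.54 to 0.80, against 1.12 to 2.02 on the parental lactation arrays, their fibroblast marker median was 8.48 to 9.50, against 6.61 to 7.53, and their white adipocyte marker median (5 of 7 measured) was 9.61 to 10.76, against 8.36 to 9.43. None of these ranges overlapped. Their part in the results below was not tested, and a difference in how the AIL arrays were handled cannot be told apart from the line.

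Atp2c1 was higher in the AIL than in both parents. Its highest probe set ranged from 9.72 through a median of 10.09 to 10.55 on the 10 AIL arrays, against 9.28, 9.05 and 9.28 in QSi5 and 9.16, 9.02 and 9.03 in CBA/CaH. No AIL array overlapped a parental one, and the difference was 0.94 against QSi5 (SE 0.12, adjusted p = 1.75e-05) and 1.07 against CBA/CaH (SE 0.12, adjusted p = 4.06e-06). Against QSi5 the difference was smaller and still passed after quantile normalization (0.59, adjusted p = 0.00213) and cyclic loess (0.62, adjusted p = 0.000972). The probe set 1431196_at was at 7.83 to 8.67, with a median of 8.37, on the AIL arrays, against 5.94, 6.34 and 6.44 in QSi5 and 5.29, 5.98 and 5.48 in CBA/CaH. It differed by 2.06 and 2.72 (SE 0.19). Among the other probe sets 1434386_at was higher (0.61 against QSi5 and 0.89 against CBA/CaH), and the dim 1442742_at was lower (-0.43 and -0.37).

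Atp2b2 ranged from 10.77 through a median of 11.13 to 11.48 in the AIL at 1433888_at, and differed by 0.46 from QSi5 (SE 0.22, adjusted p = 0.119) and by 1.15 from CBA/CaH (SE 0.22, adjusted p = 0.000866). Lactation CBA/CaH array 1, at 9.07, lay below the other 2, and without it the difference was 0.70 (adjusted p = 0.00752). At 1420403_at the AIL arrays ran from 10.19 to 10.53 with a median of 10.39, against 9.17, 9.04 and 9.28 in QSi5 and 8.49, 9.48 and 9.41 in CBA/CaH. There no AIL array overlapped a parental one, and the difference was 1.22 against QSi5 and 1.25 against CBA/CaH (SE 0.15). The third probe set, 1420402_at, passed against neither parent. Within the AIL it was at 9.40 to 10.03 on the arrays numbered 4 and 5 of each code and at 8.53 to 9.35 on those numbered 1 to 3; the labels do not say what these numbers mean.

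Atp2a2 was at 10.20 to 10.73 in the AIL, with a median of 10.55, against 9.77, 9.48 and 10.02 in QSi5 and 9.96, 9.83 and 9.88 in CBA/CaH. It differed by 0.77 from QSi5 (SE 0.11, adjusted p = 4.32e-05) and by 0.64 from CBA/CaH (SE 0.11, adjusted p = 0.000267), and the AIL arrays, all above the parental lactation arrays, lay within the pregnancy range of 10.14 to 11.18. After quantile normalization the differences were smaller and still passed, at 0.45 from QSi5 (adjusted p = 0.00185) and 0.34 from CBA/CaH (adjusted p = 0.0115). The mean of all 6 probe sets did not pass against CBA/CaH (0.18, adjusted p = 0.0845). Its probe set 1427251_at was also higher than in QSi5 (0.59) and 1437797_at was lower (-0.33). On AIL AC array 1, whose skeletal muscle median was 9.44 against 4.72 to 5.44 on the other AIL arrays, 1416551_at was at 8.77, against 7.63 to 8.13 on the other 9.

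Orai1 was at 9.89 to 10.70 in the AIL, with a median of 10.19, and differed by 0.74 from QSi5 (SE 0.16, adjusted p = 0.00148) and by 0.49 from CBA/CaH (SE 0.16, adjusted p = 0.023). The second difference rested on the scaling and on single arrays: it was 0.19 after quantile normalization (adjusted p = 0.301) and 0.37 without lactation CBA/CaH array 1 (adjusted p = 0.135), and it did not pass without array 3 (0.52, adjusted p = 0.0598). The first was smaller and still passed after quantile normalization (0.41, adjusted p = 0.0245). The other Orai1 probe set, 1424989_at, passed against neither parent (0.42 against QSi5, adjusted p = 0.0598, and 0.19 against CBA/CaH, adjusted p = 0.418). Casr was lower in the AIL, at 6.49 to 6.92 with a median of 6.77, by 0.34 against QSi5 (a difference of -0.34, SE 0.12, adjusted p = 0.0309) and by 0.51 against CBA/CaH (-0.51, SE 0.12, adjusted p = 0.00277). The difference from QSi5 did not pass with array medians set equal (-0.23) or without lactation QSi5 array 1 (-0.25) or 3 (-0.34). Its other probe set was at 0.43 against QSi5 (adjusted p = 0.0512) and 0.06 against CBA/CaH (adjusted p = 0.81), so the pair did not show 1 direction. Atp2b1 was at 7.12 to 7.63 in the AIL (1428936_at) and differed by -0.48 from QSi5 (SE 0.21, adjusted p = 0.0823) and by -1.01 from CBA/CaH (SE 0.21, adjusted p = 0.00146), while its other probe sets passed against neither parent. Without lactation CBA/CaH array 1, at 9.22, the second difference was -0.58 (adjusted p = 0.0129), and with all 26 arrays in 1 fit it did not pass (adjusted p = 0.411). The Atp2b1 probe set 1428937_at was at 0.38 against QSi5 (adjusted p = 0.0602), and every AIL array lay above every QSi5 array there. Against QSi5 the Atp2b1 probe sets thus did not show 1 direction.

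Atp2c2, Stim1 and Tph1 did not pass against either parent. Atp2c2 ranged from 10.40 to 10.77 in the AIL and differed by 0.21 from QSi5 (SE 0.12, adjusted p = 0.199) and by 0.23 from CBA/CaH (SE 0.12, adjusted p = 0.162); after quantile normalization these were -0.05 and -0.03, and without lactation QSi5 array 3 the first passed (0.36, adjusted p = 0.0443). Tph1 ranged from 4.44 to 5.03 and differed by -0.15 and -0.16 (SE 0.16). Stim1 ranged from 6.26 to 6.92 and differed by -0.31 from QSi5 (SE 0.14, adjusted p = 0.0949) and by -0.10 from CBA/CaH (SE 0.14, adjusted p = 0.62). After quantile normalization it was lower than in QSi5 (-0.52, adjusted p = 0.0206), as it was without lactation QSi5 array 3 (-0.43, adjusted p = 0.0497). It was also lower with only the AIL arrays numbered 4 and 5 (-0.53, adjusted p = 0.0233). Those arrays were at 6.26 to 6.57, against 6.60 to 6.92 on the AIL arrays numbered 1 to 3. Between the AQ and AC codes no member passed, and 0.0% of all probe sets did (limma; 2 of the 25 member probe sets had an unadjusted p under 0.05). The largest difference at a highest probe set was that of Atp2c1, at -0.38 (SE 0.12, adjusted p = 1.00), with AQ arrays at 9.72 to 10.15 and AC arrays at 9.98 to 10.55.

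**Figure D4:**
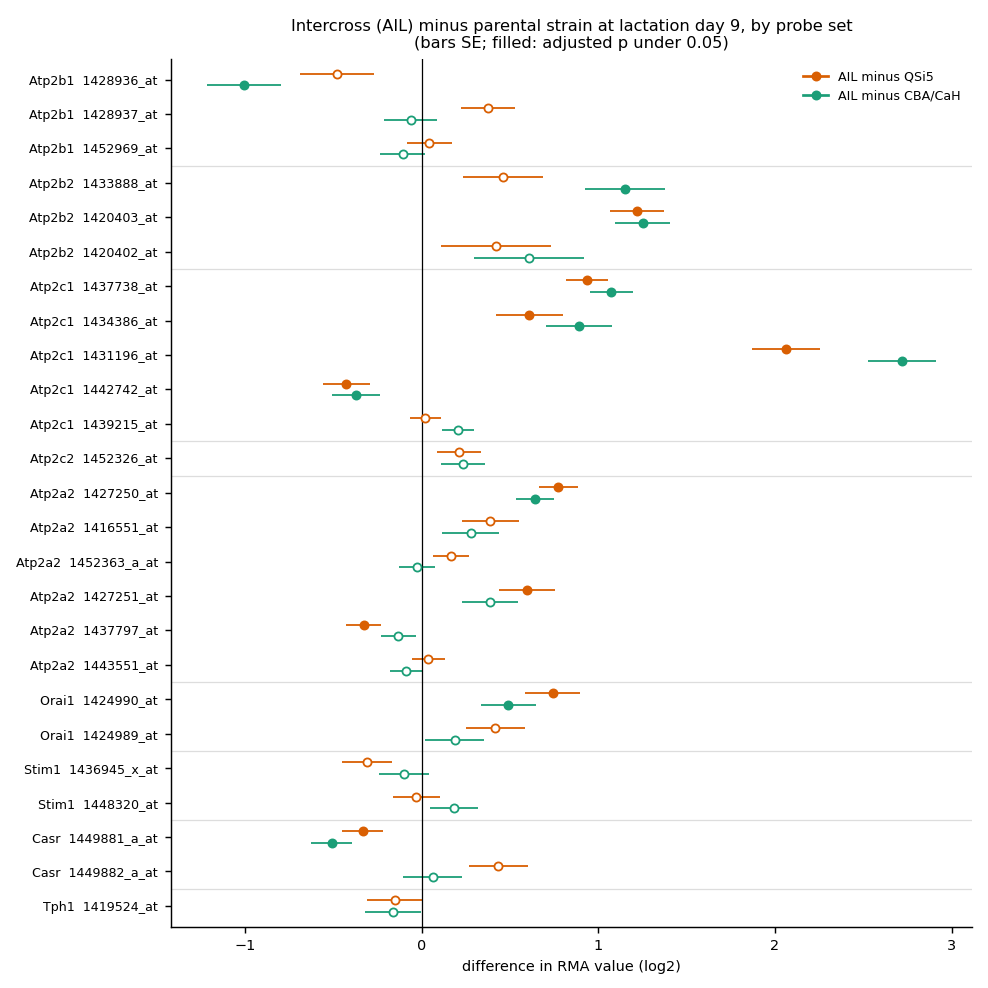
AIL minus QSi5 and AIL minus CBA/CaH at lactation day 9 (log2, points; bars are SEs) for all 25 probe sets, filled where the adjusted p was under 0.05. Atp2c1 1431196_at lies furthest out, at 2.06 and 2.72, and 1442742_at of the same gene lies below 0.

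Other genes of calcium handling, in lists chosen with earlier results of these data known, moved in both directions; their counts are to be read against the 35.9% of all probe sets that rose and 23.1% that fell in QSi5, and the 32.3% and 20.7% in CBA/CaH. Among 4 other calcium pump genes 2 rose in QSi5 and 1 in CBA/CaH, with none lower; the list median was 0.34 and 0.46, against 0.19 and 0.17 for all probe sets. Atp2b3, which encodes PMCA3, rose by 1.39 in QSi5 and 1.17 in CBA/CaH (SE 0.17), with lactation arrays at 6.02 to 6.44 and 6.16 to 6.35, against pregnancy arrays at 4.51 to 4.88 and 4.64 to 5.39. It was lower in the AIL than in either parent, by 0.55 against QSi5 (-0.55, SE 0.13) and by 0.62 against CBA/CaH (-0.62, SE 0.13). Of 9 measured partners of store-operated entry, 1 rose and 2 fell in QSi5, and 1 rose and 1 fell in CBA/CaH (medians -0.17 and -0.04). Cracr2b, a cytoplasmic regulator of ORAI1, fell by 1.15 in QSi5 and by 1.35 in CBA/CaH (SE 0.16). Of 6 measured calcium release channel genes, 1 rose and 1 fell in QSi5, and 2 rose in CBA/CaH (medians -0.03 and 0.10), with Ryr3, a ryanodine receptor, rising by 1.01 and 0.70 (SE 0.19).

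The calcium-binding proteins of the endoplasmic reticulum and Golgi, which buffer calcium or fold proteins there, moved in both directions. Of 13 measured, 11 fell and 1 rose in QSi5, and 7 fell and 1 rose in CBA/CaH, with list medians of -1.05 and -0.68. Of all probe sets 23.1% fell in QSi5 and 20.7% in CBA/CaH, and of those with a mean of at least 5, 37.5% and 33.9% fell. After quantile normalization 7 fell and 2 rose in QSi5, and without the arrays that stood apart 8 fell and 1 rose. Rcn1, the calcium-binding protein reticulocalbin 1, was at 4.01 to 4.24 in lactating QSi5, against 8.62 to 9.08 in pregnant QSi5, and at 4.12 to 4.95 in lactating CBA/CaH, against 8.97 to 9.78 in pregnant CBA/CaH. It fell by 4.63 in QSi5 and by 4.89 in CBA/CaH (SE 0.20). Rcn2, of the same family, fell by 2.64 and 2.16 (SE 0.26). Nucb2, a calcium-binding protein and the precursor of the peptide nesfatin, was the one that rose, by 2.74 in QSi5 and 3.27 in CBA/CaH (SE 0.30), with lactation arrays at 11.48 to 11.93 and 12.19 to 12.55, against pregnancy arrays at 8.34 to 9.44 and 8.65 to 10.02. In the AIL 8 of the 13 were higher than in QSi5 and 7 higher than in CBA/CaH, with 0 lower. Of all probe sets 15.7% were higher and 20.3% lower against QSi5, and 14.7% and 17.4% against CBA/CaH. Of those with a mean of at least 5, 26.9% were higher against QSi5 and 25% against CBA/CaH. After quantile normalization 4 of the 13 were higher against each, and 2 were lower against CBA/CaH.

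**Figure D5:**
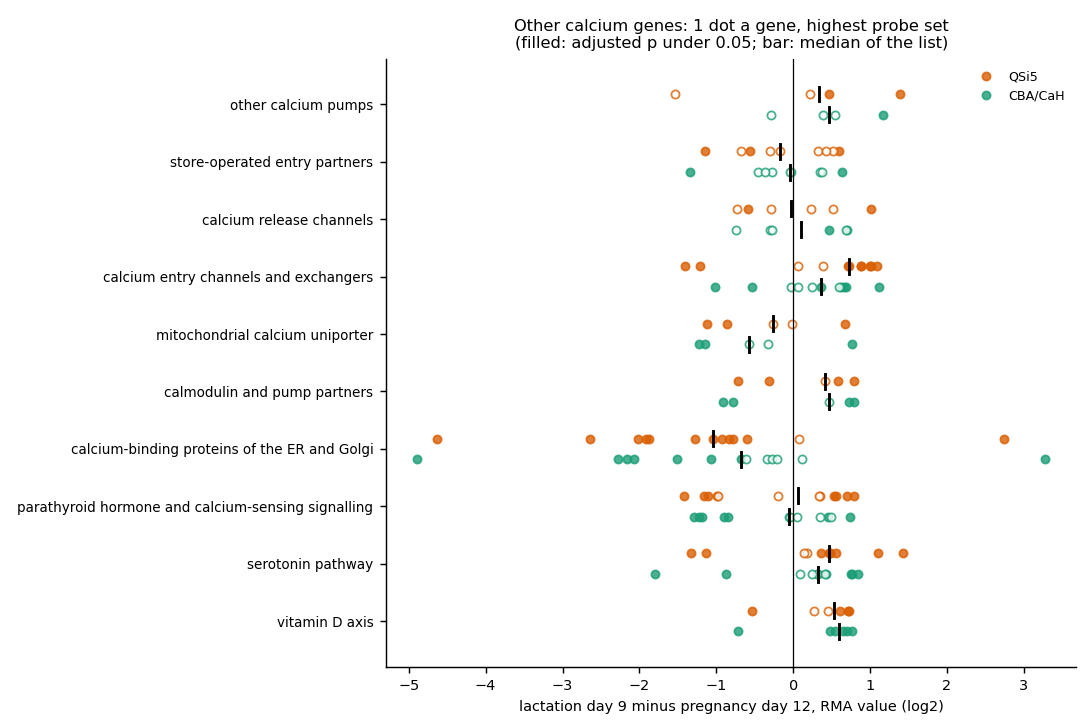
Lactation day 9 minus pregnancy day 12 (log2) for each gene (dots, highest probe set) of 10 lists in QSi5 and CBA/CaH, filled where the adjusted p was under 0.05, with the list median as a bar. Rcn1 lies at -4.63 and -4.89 and Nucb2 at 2.74 and 3.27 in the list of calcium-binding proteins.

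Of 11 measured calcium entry channels and exchangers, 7 rose and 2 fell in QSi5, and 5 rose and 2 fell in CBA/CaH (medians 0.72 and 0.37), against 35.9% higher and 23.1% lower of all probe sets in QSi5 and 32.3% and 20.7% in CBA/CaH; the CBA/CaH counts were near these shares. Cacna1c, a voltage-gated channel subunit, rose by 0.88 in QSi5 and 1.12 in CBA/CaH (SE 0.19); Trpm7, a cation channel with a kinase domain, was at -1.41 and -1.01 (SE 0.40), and Slc8b1, the mitochondrial sodium and calcium exchanger, at -1.22 and -0.54 (SE 0.22), both past the threshold as deposited. Quantile normalization took Trpm7 out of the calls in both strains and Slc8b1 in CBA/CaH. Of 5 measured genes of the mitochondrial uniporter, 1 rose and 2 fell in each strain (medians -0.27 and -0.58): Smdt1, a subunit, rose by 0.68 and 0.77 (SE 0.15), Micu2, a gatekeeper, fell by 1.12 in QSi5 and by 1.14 in CBA/CaH (SE 0.28), and Mcur1, an assembly factor, was at -0.87 and -1.22 (SE 0.25) and did not pass after quantile normalization. Of 5 measured calmodulin and pump partners, 2 rose and 2 fell in each strain (medians 0.41 and 0.46). Pln, phospholamban, an inhibitor of SERCA pumps in heart, rose by 0.79 in each (SE 0.14) and Sln, sarcolipin, another SERCA inhibitor of muscle, by 0.58 and 0.73 (SE 0.12), while Dlg1, a scaffold protein, was at -0.72 and -0.79 (SE 0.24) and at 0.0028 in QSi5 after quantile normalization. After cyclic loess neither Micu2 nor Sln passed in QSi5.

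Of 12 genes of parathyroid hormone and calcium-sensing signalling, 4 rose and 4 fell in QSi5, and 2 rose and 5 fell in CBA/CaH (medians 0.07 and -0.05). The G protein genes Gnai2 and Gna12 fell by 1.43 and 1.11 in QSi5 and by 1.29 and 1.22 in CBA/CaH, and Ramp2, a receptor chaperone, fell by 1.16 and 0.84 and passed in neither strain after quantile normalization. Of 11 measured serotonin genes besides Tph1, 7 rose and 2 fell in QSi5, and 5 rose and 2 fell in CBA/CaH (medians 0.46 and 0.32), and with array medians set equal 2 rose in QSi5 and 3 in CBA/CaH. Those that fell were the monoamine oxidases that break serotonin down, Maob (-1.33 and -1.80, SE 0.37) and Maoa (-1.13 and -0.88, SE 0.21), and the receptor gene Htr2b rose by 1.42 and 0.76 (SE 0.23), in CBA/CaH not after quantile normalization. Of 6 vitamin D genes 3 rose and 1 fell in QSi5, and 5 rose and 1 fell in CBA/CaH (medians 0.53 and 0.60). Cyp24a1, which degrades vitamin D, and Cyp27b1, which activates it, rose by 0.71 and 0.73 in QSi5 and by 0.70 and 0.65 in CBA/CaH, and neither passed after quantile normalization; the receptor partner Rxra was at -0.54 and -0.72 as deposited and at 0.22 in QSi5 after cyclic loess.

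The genes most like 3 of the members over the 6 group means were found by the root mean square distance between means centred on each gene, over 18192 genes, as a description. Nearest to Atp2b2 were Ccl28 (0.617), Egf (0.710) and Stxbp5l (0.963), against a range of 7.59 between the highest and lowest group mean of Atp2b2. Nearest to Atp2c2 were Lrpap1 (0.132), Cst3 (0.152) and Atp13a4 (0.164), over a range of 3.38. Nearest to Tph1 were Adamts20 (0.0634), Bnipl (0.0711) and Prom1 (0.121), over a range of 3.04. These last genes were picked by their closeness to Tph1 over these same means. Their higher mean in pregnant QSi5 than in pregnant CBA/CaH follows from that choice and adds no evidence on Tph1. At pregnancy Adamts20 averaged 6.09 in QSi5 and 5.01 in CBA/CaH. Bnipl averaged 6.94 in QSi5 and 5.71 in CBA/CaH, and Prom1 6.75 in QSi5 and 5.67 in CBA/CaH.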

How the data were processed

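Total RNA of the inguinal mammary gland was extracted with a Qiagen RNeasy kit and hybridised as biotinylated cRNA, as the labels' protocols state. The authors deposited RMA values on the log2 scale, 1 per probe set and array, per the submitters' processing notes; which software was used and whether all arrays were processed together are not given in the sources used here. RMA has no detection call, and differences of dim probe sets are compressed. The table held 45101 probe sets on 26 arrays, and array medians ran from 5.00 to 5.30. Of these, 64 controls were left out and 45037 were tested. The array annotation gave 34945 of them 1 symbol, 932 several and 9160 none.

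Linear models were fitted with limma 3.58.1 in R 4.3.3 (lmFit and eBayes), 1 over the 16 parental arrays (stage, strain, interaction) and 1 over the 16 lactation arrays, where the AIL was the mean of its AC and AQ groups. Benjamini-Hochberg adjustment ran over all probe sets tested, and the threshold was 0.05. The models were tested on simulated data. For each gene the probe set of highest mean stood for it. All members are named, and of each other list up to 3 genes called in both strains in the same direction, by size of the mean difference. The members and lists were chosen with earlier results of these data known. Alternatives were a filter on mean level of 5, another variance model, 3 scalings, all arrays in 1 fit, array weights, the mean of all probe sets of a gene, a replicate block, and fits without arrays that stood apart (over 1 log2 unit above the group median in the Gapdh 3′ minus 5′ value or in skeletal muscle, brown adipocyte or B and plasma cell markers; other lists and low values were not used), without each replicate in turn or with some AIL arrays. Promoters are from RefSeq (GRCm38.p6). Figures were drawn with matplotlib 3.10.9.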

Additional observations from a re-analysis of the deposited data

Results flagged for a closer look

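Among 36 groups of 5 arrays tested for an array far from the rest of its group, 3 values stood apart, and chance flags about 1 in 20 such groups. Atp2b1 (1428936_at) was at 3.57 on pregnancy QSi5 array 5, a gap of 0.725 of the range of its group. Atp2c1 (1437738_at) was at 7.02 on pregnancy QSi5 array 4, a gap of 0.845 of the range, on the array with the Gapdh value of 6.50. Atp2c2 was at 8.62 on pregnancy CBA/CaH array 2, a gap of 0.765 of the range, on the array with the lowest white adipocyte (8.35), fibroblast (8.43) and brown adipocyte (5.05) marker medians of its group.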

How the results depend on the processing

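At the highest probe sets, 1477 of 1530 gene results under an alternative kept their side of the threshold, and 1411 of these kept their sign too. In all 67 changed sign, 66 of which passed neither as deposited nor under the alternative. The one that was called as deposited was Casr in the AIL against QSi5, at 0.049 (adjusted p = 0.722) with the mean of all probe sets of a gene. For strain at pregnancy, where no gene was called as deposited, 1 was called (Tph1) with a mean of at least 5, with the trended and robust variance model, after cyclic loess, with all 26 arrays in 1 fit and with the mean of probe sets, and 2 (Tph1 and Atp2c1) with array weights. The mean of probe sets gave 3 calls for the AIL against CBA/CaH, in place of 6 (Atp2a2, Casr and Orai1 lost). Leaving out 1 replicate gave 6 calls for stage in CBA/CaH, 6 to 7 for stage in QSi5 (Atp2b1 without pregnancy array 5, Stim1 without array 4), 0 to 2 for strain at pregnancy, 0 for strain at lactation, the interaction and AQ against AC, 5 to 6 for the AIL against CBA/CaH and 3 to 5 for the AIL against QSi5, where Casr was lost without lactation QSi5 array 1 (-0.25) or 3 (-0.34) Tph1 was gained without array 2 (-0.42, adjusted p = 0.046), and Atp2c2 and Stim1 were gained without array 3 (0.36 and -0.43). At pregnancy Atp2c1 passed without QSi5 array 4 (0.97, adjusted p = 0.00986), and Tph1 without that array or without CBA/CaH array 3 or 4 (1.29 to 1.33). The replicate numbers were not taken to pair the samples, since the labels do not say that they do and not every same-numbered pair correlated over 0.1: correlations of deviations between AQ and AC arrays were 0.144, 0.00737, 0.165, 0.316 and 0.244 for numbers 1 to 5, and 3 of 5 correlated best with their own number, a hint from the data and not the design. The replicate block gave 6 calls for each stage comparison and for the AIL against CBA/CaH, 3 against QSi5 (Casr lost, -0.30) and 0 for the others. A limit is the 3 arrays of each parental lactation group, and causes of these changes were not tested.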
